A study of Homo sapiens with 24 samples.

Results

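The Frizzled receptors FZD1 to FZD8 and their co-receptors LRP5 and LRP6 were followed through knockdown and overexpression of FMR4, a long noncoding RNA transcribed antisense to FMR1. These 10 genes were picked by name out of 18414 genes on the array, and each is read by 1 probe set that carries its symbol alone. FZD9 and FZD10 were counted among the other Wnt-binding receptors. The cells were HEK293T, an established human embryonic kidney line that carries the large T antigen. In the knockdown arm, cells received FMR4 siRNA or CTRL siRNA at 40 nM with Lipofectamine RNAiMAX. In the overexpression arm, cells received FMR4 pcDNA3.1, the expression plasmid with FMR4, or CTRL pcDNA3.1, the empty vector, at 0.5 µg with Lipofectamine 2000CD. RNA was taken 6 or 24 h after transfection from 3 samples per condition, 24 in all, and each sample was pooled from 3 technical replicates. The arms differ in both nucleic acid and reagent, no untransfected cells were analysed here, and the knockdown used 1 siRNA sequence against FMR4.

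Frizzleds are multi-pass membrane proteins with an extracellular cysteine-rich domain that binds the lipid of a Wnt ligand. LRP5 and LRP6 are single-pass members of the LDL receptor family that join a Frizzled on the same ligand, become phosphorylated and recruit Axin, so that beta-catenin is no longer degraded and reaches the TCF/LEF factors on DNA. Frizzleds also act without LRP5 and LRP6, in planar cell polarity and in axon guidance. HEK293T cells are a common host for assays of this pathway.

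Values are GC-RMA log2 signals, so that 1 unit is a doubling, and they compare conditions within a gene but not genes with each other, since probe sets differ in how strongly they hybridise. Array medians lay between 7.43 and 7.53. As a floor, 454 probe sets for olfactory receptors and keratin-associated proteins, taken here to be mostly silent in these cells, had a median of 5.32 and a 95th percentile of 7.73. The mean of FZD4 over 24 arrays, 7.63, was under that 95th percentile and those of the other 9 members were above it. All 7 markers of HEK293T cells were above the upper quartile of the floor, 6.00, and 6 of them above its 95th percentile. Of 13 measured markers of blood, endothelial, fibroblast, liver, neuronal and glial cells, PTPRC, PECAM1, DCN, LUM and ALB lay below that quartile and SYP alone lay above the 95th percentile. FMR4 itself was not read from these arrays. FMR4 siRNA at 6 h had the replicates least alike. Correlations among its 3 arrays ran from 0.9893 to 0.9966. The lowest of any other condition was 0.9967, with FMR4 siRNA at 24 h. Replicate 3 of FMR4 siRNA at 6 h had the highest signal of its condition in 6 of the 10 members. The comparisons that use its condition, and others whose calls it moves, are therefore given with and without it. Since the array was singled out by values of these same members, calls gained without it describe its weight and are no separate support.

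FZD5, a receptor needed for yolk-sac vessels and gut epithelium in mice, had its highest condition mean with FMR4 siRNA at 24 h and its lowest with CTRL siRNA at 24 h. At 6 h its signals were 8.47, 8.50 and 8.95 with FMR4 siRNA, against 8.68, 8.56 and 8.62 with CTRL siRNA. At 24 h they were 8.65, 8.77 and 8.65 with FMR4 siRNA, against 8.36, 8.29 and 8.34 with CTRL siRNA. The 24 h arrays did not overlap, and at 6 h the first 2 FMR4 siRNA arrays lay under all 3 controls while replicate 3 lay above them. With plasmids at 6 h FZD5 read 8.56, 8.44 and 8.53 for FMR4 pcDNA3.1, against 8.36, 8.50 and 8.50 for CTRL pcDNA3.1. At 24 h it read 8.41, 8.44 and 8.33 for FMR4 pcDNA3.1, against 8.56, 8.50 and 8.37 for CTRL pcDNA3.1. These plasmid arrays overlapped at both times, and in the order of the 8 condition means no step between neighbours exceeded the pooled replicate SD of 0.115.

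FZD4, which besides Wnt binds Norrin and is needed for retinal vessels, ran highest with CTRL siRNA at 6 h and lowest with CTRL siRNA at 24 h. Its 6 h signals were 7.55, 7.55 and 8.03 with FMR4 siRNA, against 7.83, 7.75 and 7.91 with CTRL siRNA. Its 24 h signals were 7.42, 7.54 and 7.51 with FMR4 siRNA, against 7.47, 7.46 and 7.32 with CTRL siRNA. At 6 h replicates 1 and 2 of FMR4 siRNA were below every control and replicate 3 above every control, and at 24 h the groups overlapped. In the plasmid arm the 6 h signals were 7.67, 7.48 and 7.60 with FMR4 pcDNA3.1, against 7.61, 7.70 and 7.53 with CTRL pcDNA3.1. The 24 h signals were 7.61, 7.71 and 7.69 with FMR4 pcDNA3.1, against 7.79, 7.66 and 7.68 with CTRL pcDNA3.1. The plasmid arrays overlapped at both times, and no pair of neighbouring condition means was further apart than the pooled SD of 0.121.

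FZD7, a receptor linked to stem-cell maintenance, had the same extremes as FZD4. At 6 h the arrays read 8.38, 8.52 and 8.89 with FMR4 siRNA, against 8.69, 8.72 and 8.94 with CTRL siRNA. At 24 h the arrays read 8.48, 8.49 and 8.38 with FMR4 siRNA, against 8.39, 8.22 and 8.33 with CTRL siRNA. Again replicate 3 of FMR4 siRNA at 6 h sat among the controls while the other 2 were below them, and at 24 h 1 of 3 knockdown arrays fell within the control range. With plasmid at 6 h the arrays read 8.43, 8.44 and 8.46 with FMR4 pcDNA3.1, against 8.50, 8.42 and 8.42 with CTRL pcDNA3.1. With plasmid at 24 h they read 8.35, 8.44 and 8.37 with FMR4 pcDNA3.1, against 8.35, 8.46 and 8.28 with CTRL pcDNA3.1. These overlapped at both times. The largest step in the order of conditions, 0.19, lay below CTRL siRNA at 6 h and exceeded the pooled SD of 0.120.

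FZD8, a receptor studied in neural and head development, was also highest with CTRL siRNA at 6 h, and lowest with CTRL pcDNA3.1 at 24 h. Its signals at 6 h were 9.25, 9.28 and 9.50 with FMR4 siRNA, against 9.49, 9.47 and 9.40 with CTRL siRNA. Its signals at 24 h were 9.16, 9.20 and 9.31 with FMR4 siRNA, against 9.21, 9.30 and 9.13 with CTRL siRNA. Both pairs overlapped, at 6 h only through replicate 3 of FMR4 siRNA. With plasmid the 6 h signals were 9.22, 9.19 and 9.31 for FMR4 pcDNA3.1, against 9.23, 9.27 and 9.18 for CTRL pcDNA3.1. The signals at 24 h were 9.12, 9.14 and 9.06 for FMR4 pcDNA3.1, against 9.18, 8.91 and 9.01 for CTRL pcDNA3.1. FMR4 pcDNA3.1 and CTRL pcDNA3.1 overlapped at both times. At 6 h all plasmid arrays lay below every CTRL siRNA array, and at 24 h the arms overlapped.

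FZD6 and FZD3 are the pair best known for planar polarity in mammals, in hair follicles and in axon tracts. FZD6 at 6 h read 9.70, 9.91 and 10.40 with FMR4 siRNA, against 10.18, 10.01 and 10.24 with CTRL siRNA. FZD6 at 24 h read 9.87, 9.92 and 9.71 with FMR4 siRNA, against 10.10, 9.83 and 10.14 with CTRL siRNA. The FMR4 siRNA and CTRL siRNA arrays of FZD6 overlapped at both times. Its plasmid arrays were 9.76, 9.59 and 9.65 with FMR4 pcDNA3.1, against 9.81, 9.80 and 9.58 with CTRL pcDNA3.1, at 6 h. At 24 h, the plasmid arrays of FZD6 were below every siRNA array, the closest of them by less than the rounding: they read 9.66, 9.58 and 9.68 with FMR4 pcDNA3.1, against 9.65, 9.71 and 9.63 with CTRL pcDNA3.1. FZD6 had the widest span of condition means among the members, 0.50. FZD3 at 6 h read 9.23, 9.12 and 9.00 with FMR4 siRNA, against 9.30, 9.15 and 9.06 with CTRL siRNA. Its plasmid signals at 6 h, 9.41, 9.36 and 9.39 with FMR4 pcDNA3.1, against 9.34, 9.33 and 9.47 with CTRL pcDNA3.1, were all above those siRNA arrays, which overlapped each other. At 24 h FZD3 no longer separated the arms, with 9.14, 9.33 and 8.98 for FMR4 siRNA, against 9.26, 9.14 and 9.26 for CTRL siRNA. The 24 h plasmid signals of FZD3 were 9.26, 9.23 and 9.14 with FMR4 pcDNA3.1, against 9.26, 9.26 and 9.16 with CTRL pcDNA3.1, again with overlap.

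FZD2, a receptor used in non-canonical signalling and in palate and limb development, was highest with CTRL pcDNA3.1 at 24 h and lowest with FMR4 siRNA at 6 h. At 6 h its arrays read 8.52, 8.35 and 8.28 with FMR4 siRNA, against 8.43, 8.55 and 8.38 with CTRL siRNA. At 24 h its arrays read 8.42, 8.45 and 8.56 with FMR4 siRNA, against 8.64, 8.64 and 8.66 with CTRL siRNA, and these did not overlap. Its plasmid arrays at 6 h read 8.51, 8.60 and 8.66 with FMR4 pcDNA3.1, against 8.44, 8.52 and 8.56 with CTRL pcDNA3.1. The plasmid arrays at 24 h read 8.65, 8.64 and 8.68 with FMR4 pcDNA3.1, against 8.86, 8.55 and 8.60 with CTRL pcDNA3.1. The plasmid arrays overlapped at both times. The 3 CTRL siRNA arrays at 24 h were close together, with an SD of 0.0094. FZD1, the Frizzled closest in sequence to FZD2 and FZD7, stayed between 7.90 and 8.23 on all 24 arrays.

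LRP6, the co-receptor that mouse embryos cannot do without, was highest with FMR4 siRNA at 24 h and lowest with CTRL siRNA at 24 h. Its 6 h arrays were 9.96, 9.91 and 10.22 with FMR4 siRNA, against 10.09, 9.98 and 10.06 with CTRL siRNA. Its 24 h arrays were 10.17, 10.26 and 9.98 with FMR4 siRNA, against 9.94, 9.75 and 9.87 with CTRL siRNA. The 24 h groups did not overlap, although replicate 3 of FMR4 siRNA lay close to replicate 1 of CTRL siRNA. With plasmid, LRP6 at 6 h was 10.07, 10.05 and 10.10 for FMR4 pcDNA3.1, against 10.12, 10.06 and 10.13 for CTRL pcDNA3.1. With plasmid, LRP6 at 24 h was 10.16, 10.05 and 10.05 for FMR4 pcDNA3.1, against 10.18, 10.24 and 9.99 for CTRL pcDNA3.1. The plasmid arrays overlapped at both times, and CTRL siRNA at 24 h was the condition that stood off: the step of 0.17 above it was larger than the pooled SD of 0.101, and none of the other 6 steps was.

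LRP5, the co-receptor whose mutations change bone mass and retinal vessels, was also highest with FMR4 siRNA at 24 h, but lowest with FMR4 siRNA at 6 h. Its arrays at 6 h read 8.89, 8.64 and 8.70 with FMR4 siRNA, against 8.87, 8.86 and 8.64 with CTRL siRNA. Its arrays at 24 h read 9.02, 9.07 and 9.07 with FMR4 siRNA, against 8.88, 8.78 and 8.85 with CTRL siRNA. The 3 knockdown arrays at 24 h lay above all 3 controls, with an SD of 0.029. Plasmid arrays of LRP5 at 6 h read 8.79, 8.91 and 9.01 with FMR4 pcDNA3.1, against 8.91, 8.84 and 8.87 with CTRL pcDNA3.1. Those at 24 h read 8.92, 8.86 and 8.83 with FMR4 pcDNA3.1, against 8.93, 8.98 and 8.85 with CTRL pcDNA3.1, with overlap at both times.

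Over all 8 conditions together, limma's moderated F test called 8 of the 10 members at an adjusted p under 0.05, where 34.8% of genes were called, the 2 not called being FZD1 (adjusted p = 0.329) and LRP6 (adjusted p = 0.104). The adjusted p was lowest for FZD8, 0.00271, with FZD6 at 0.00633 and FZD7 at 0.00642. FZD3 at 0.0490 and LRP5 at 0.0451 were near the threshold, and their calls held in only 4 and 7 of the 24 fits that left out 1 array. When replicate 3 of FMR4 siRNA at 6 h was left out, 7 of 10 members were called, where 39.9% of genes were: LRP6 was then called (adjusted p = 0.0207), and FZD3 (adjusted p = 0.0581) and LRP5 (adjusted p = 0.0695) were not. LRP6 was also called in the F test with array weights (adjusted p = 0.00796) and after quantile normalization (adjusted p = 0.0417). Spans between the highest and lowest condition mean were 0.19 (FZD1) to 0.50 (FZD6) on the log2 scale.

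**Figure D1:**
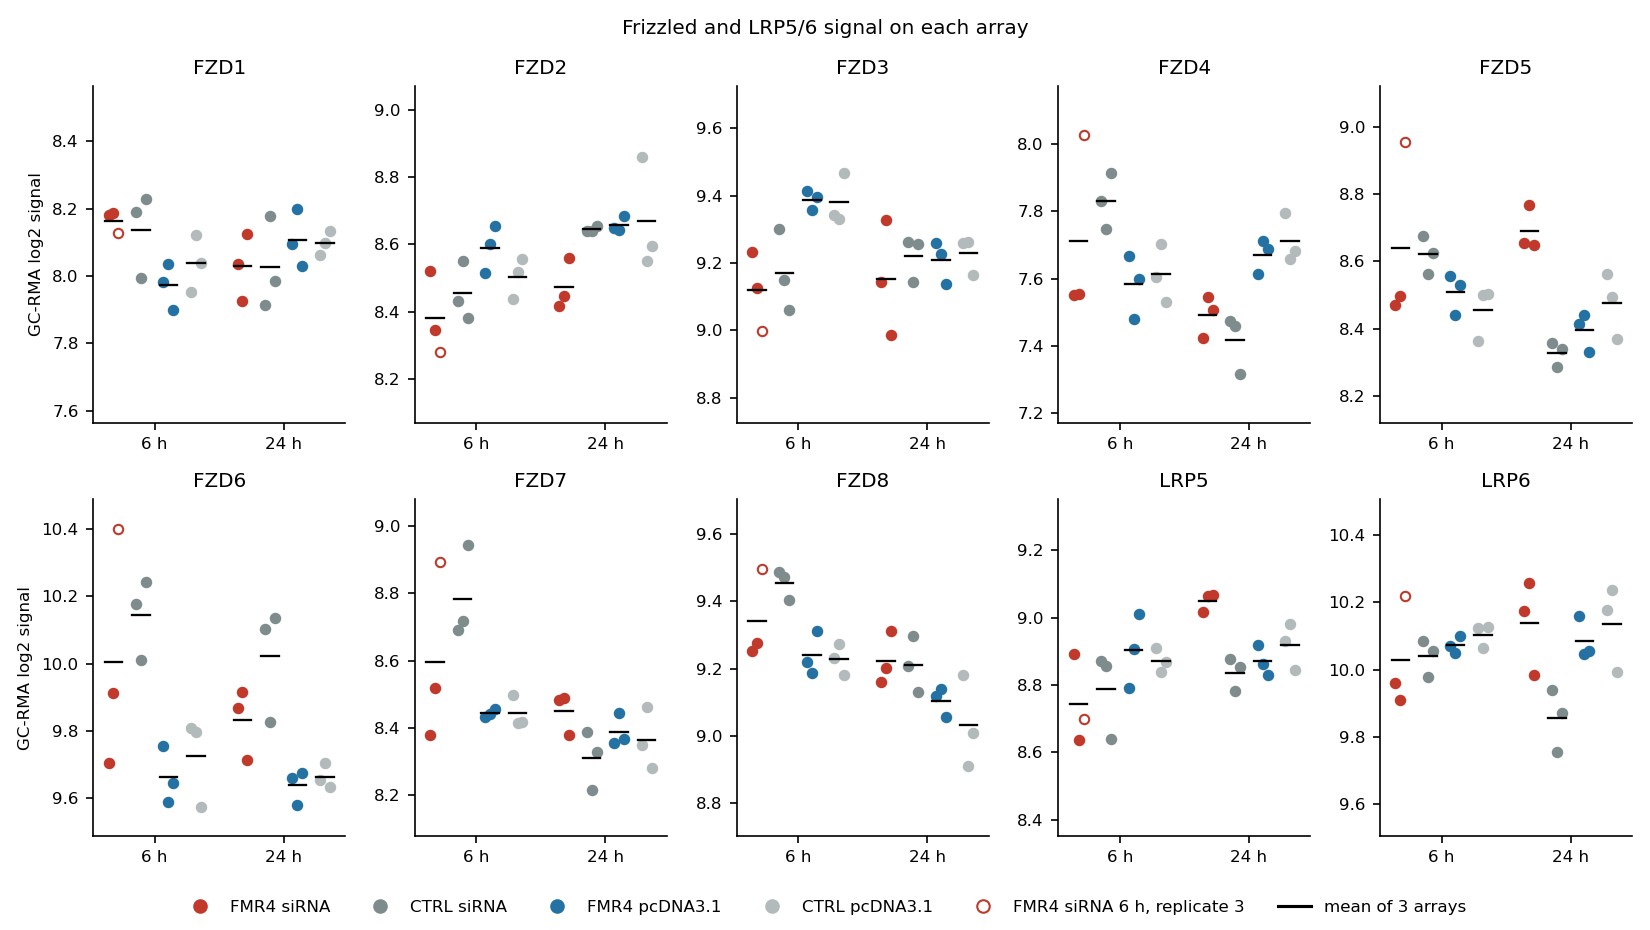
GC-RMA log2 signal of each member on each of 24 arrays (points) with the mean of the 3 arrays (lines), by transfection and time, on axes that each span 1 log2 unit but start at different levels. The open point is replicate 3 of FMR4 siRNA at 6 h, the highest of its condition in 6 panels, and at 24 h the FMR4 siRNA points of FZD5, LRP5 and LRP6 lie above all CTRL siRNA points.

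The knockdown comparison at 24 h asks what changes when FMR4 is reduced. FZD5 and LRP6 were higher with FMR4 siRNA than with CTRL siRNA, 2 of the 10 members, where 3.43% of genes were called higher. In the knockdown comparisons, rose and fell mean called higher or lower than CTRL siRNA of the same time. No member was called lower, where 2.45% of genes were. FZD5 averaged 8.69 ± 0.067 with FMR4 siRNA and 8.33 ± 0.036 with CTRL siRNA (SD, n = 3 each), a difference of 0.36 or 1.29-fold, with a 95% interval of 0.18 to 0.55 and an adjusted p of 0.0152. LRP6 averaged 10.14 ± 0.14 with FMR4 siRNA and 9.85 ± 0.094 with CTRL siRNA, a difference of 0.28 or 1.22-fold (0.12 to 0.45, adjusted p = 0.0392). From 6 to 24 h, FZD5 changed by 0.05 with FMR4 siRNA (adjusted p = 0.765) and by -0.29 with CTRL siRNA (adjusted p = 0.0261). LRP6 changed by 0.11 with FMR4 siRNA (adjusted p = 0.398) and by -0.19 with CTRL siRNA (adjusted p = 0.123).

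The other co-receptor, LRP5, was 0.21 higher with FMR4 siRNA (0.06 to 0.36, adjusted p = 0.0980) and was not called, although its arrays did not overlap. It was called when only the 12 arrays of 24 h were fitted (adjusted p = 0.0317), where LRP6 was not (adjusted p = 0.0524). FZD2 was the member with the lowest adjusted p among those with a negative difference, at -0.17 (-0.33 to -0.02, adjusted p = 0.253). In all, 4 members had arrays that did not overlap, FZD5, LRP6, LRP5 and FZD2, and 22.2% of genes had this. The remaining 6 differed by -0.19 (FZD6) to 0.14 (FZD7), and their intervals reached from -0.44 to 0.33. Counted without a test, 7 members were higher and 3 lower, and the median difference was 0.04, against 0.004 over all genes. In bulk RNA, a lower level per cell cannot be told apart from fewer cells that express a gene.

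The FZD5 call was lost when replicate 2 of CTRL siRNA at 24 h was left out (adjusted p = 0.0748) or replicate 2 of FMR4 siRNA at 24 h (adjusted p = 0.0866), and held in the other 22 such fits. The LRP6 call was lost in 4 of 24. The adjusted p came to 0.224 and 0.0885 when the second or the third CTRL siRNA array at 24 h was dropped, and to 0.128 and 0.223 when the first or the second FMR4 siRNA array was. It was also lost in 4 of 10 other settings. Both calls held when replicate 3 of FMR4 siRNA at 6 h was left out (adjusted p = 2.41e-04 for FZD5 and 0.0116 for LRP6), where 4.85% of genes were called higher and 3.36% lower.

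At 6 h no member was called in the knockdown comparison, where 0.0326% of genes were called higher and 0.0272% lower. Differences ran from -0.19 (FZD7) to 0.03 (FZD1), and the lowest unadjusted p was 0.0554, for FZD7. Without replicate 3 of FMR4 siRNA, an array singled out for its values, FZD7, FZD6 and FZD4 fell, 3 of 10 members, where 3.95% of genes were called lower and 0.690% higher. FZD7 then differed by -0.34 (-0.49 to -0.18, adjusted p = 0.0119). FZD6 came to -0.33 (-0.53 to -0.14, adjusted p = 0.0480) and FZD4 to -0.28 (-0.43 to -0.13, adjusted p = 0.0276). FZD8, at -0.19, and FZD5, at -0.14, were not called (adjusted p = 0.150 and 0.281). These values come from 2 knockdown arrays against 3 controls.

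The knockdown difference at 24 h minus that at 6 h was above 0 for 6 members, with FZD5 at 0.34, FZD7 at 0.33, LRP6 at 0.29 and LRP5 at 0.26. No member was called, where 1.18% of genes were, and adjusted p for these 4 was 0.272 to 0.334, so the knockdown differences of FZD5 and LRP6 at 24 h were not shown to differ from those at 6 h. Without replicate 3 of FMR4 siRNA at 6 h, 4 members were called, where 8.31% of genes were: FZD5 at 0.50 (adjusted p = 0.00128), FZD7 at 0.48 (adjusted p = 0.00529), LRP6 at 0.39 (adjusted p = 0.0234) and FZD4 at 0.35 (adjusted p = 0.0263). Each of the 4 was then larger than with all 24 arrays. This had to follow, since the array left out was the highest of its condition in each.

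**Figure D2:**
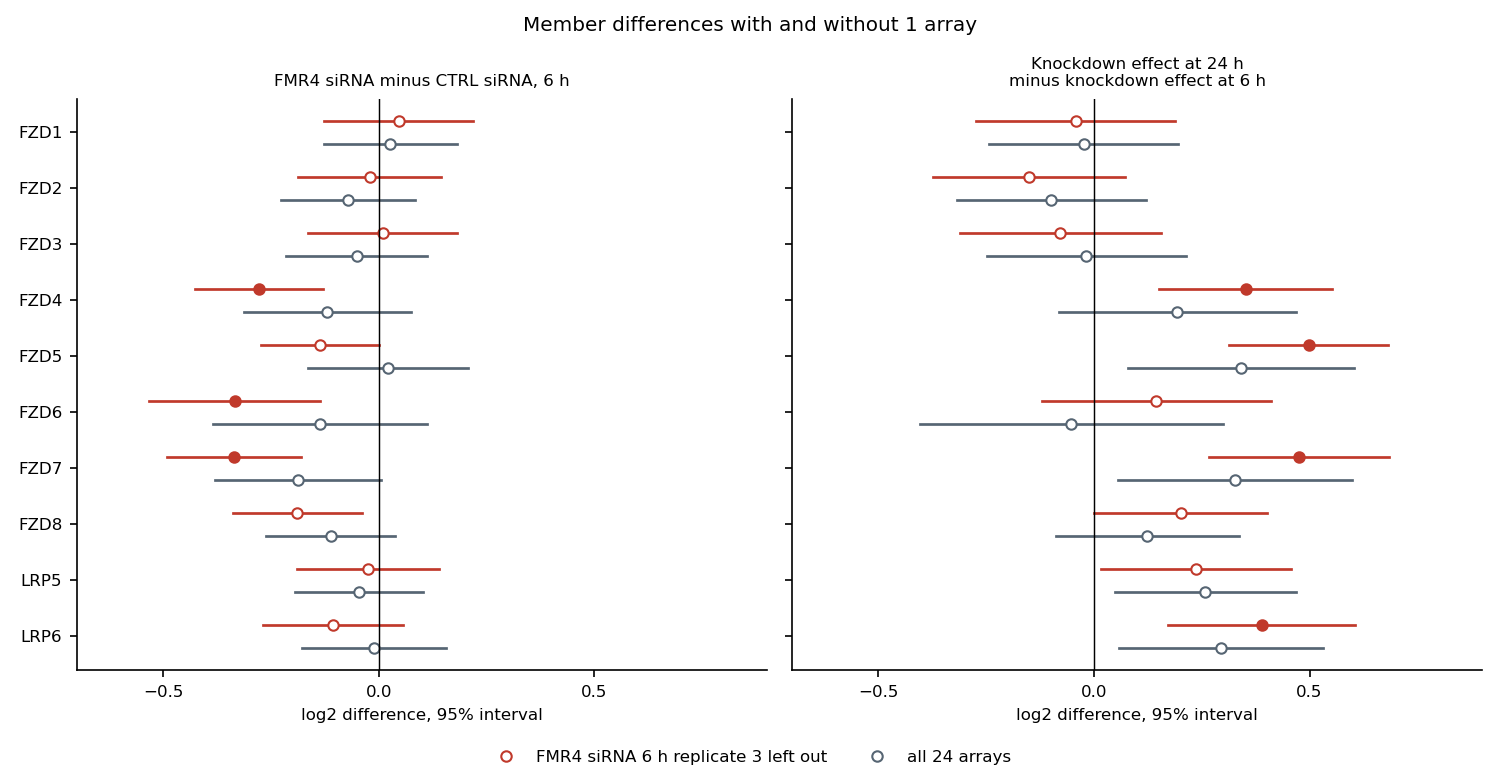
Log2 differences of the 10 members with 95% intervals, without replicate 3 of FMR4 siRNA at 6 h and with all 24 arrays, for the knockdown at 6 h (left) and for the knockdown effect at 24 h minus that at 6 h (right). Filled points have an adjusted p under 0.05: FZD4, FZD6 and FZD7 on the left and FZD4, FZD5, FZD7 and LRP6 on the right, in both panels only without that array.

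In the overexpression comparisons no member was called at either time, where 0% of genes were. At 24 h differences between FMR4 pcDNA3.1 and CTRL pcDNA3.1 ran from -0.08 (FZD5) to 0.07 (FZD8). At 6 h they ran from -0.06 (FZD1) to 0.09 (FZD2). No member had an unadjusted p under 0.05 at either time, against 602 genes at 24 h and 372 at 6 h. FZD5 averaged 8.40 ± 0.057 with FMR4 pcDNA3.1 and 8.48 ± 0.098 with CTRL pcDNA3.1 at 24 h (interval of the difference -0.27 to 0.11). LRP6 averaged 10.09 ± 0.062 with FMR4 pcDNA3.1 and 10.14 ± 0.13 with CTRL pcDNA3.1 (-0.22 to 0.12). The intervals of FZD6, the member with the largest standard error, reached down to -0.31 at 6 h and up to 0.22 at 24 h. The overexpression difference at 24 h minus that at 6 h also called no member (0% of genes), with values between -0.13 (FZD5) and 0.07 (FZD1).

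**Figure D3:**
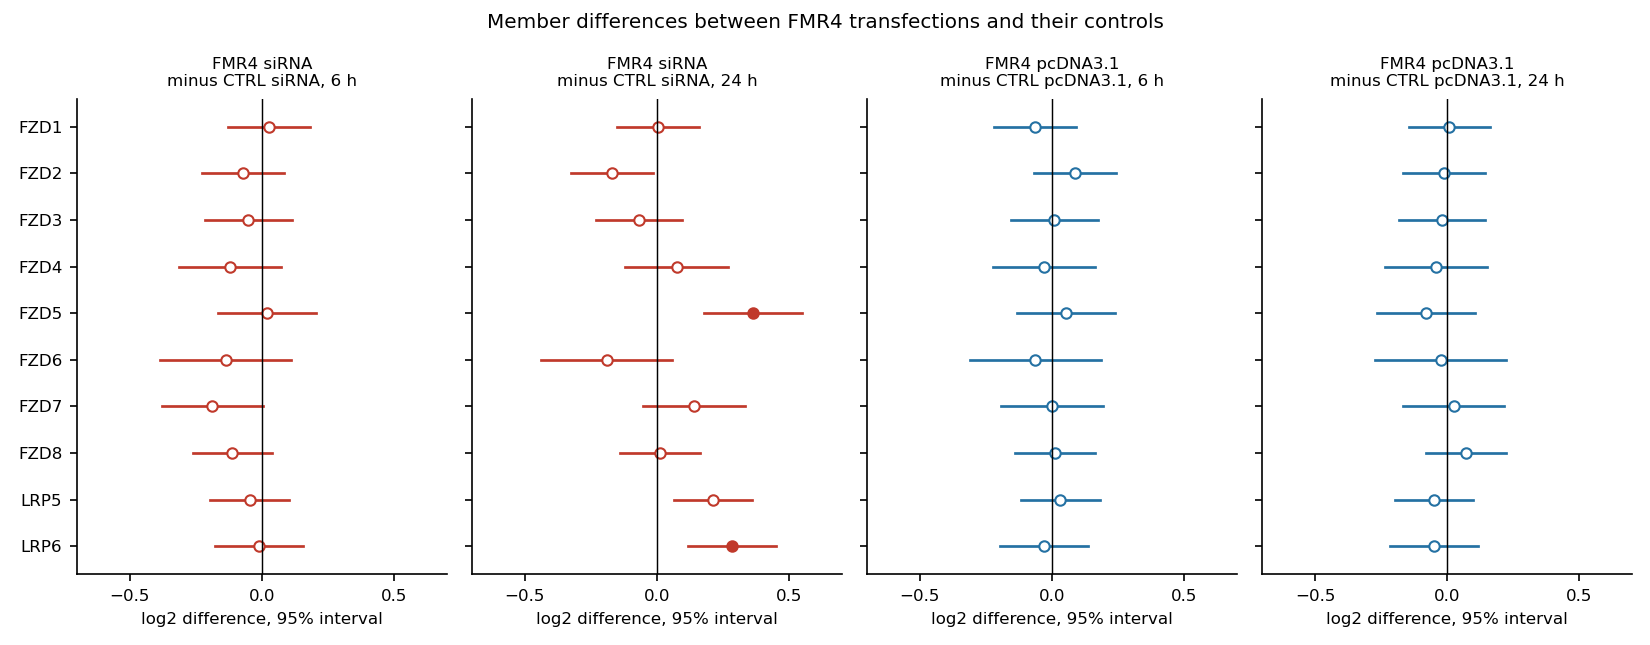
Log2 differences of the 10 members with 95% intervals in the knockdown and overexpression comparisons at 6 and 24 h. Filled points have an adjusted p under 0.05, which are FZD5 (0.36) and LRP6 (0.28) in the knockdown at 24 h alone.

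Between 24 and 6 h, 4 of the Frizzled members fell with CTRL siRNA and 1 co-receptor rose with FMR4 siRNA, and no member was called in the plasmid arm. FZD10, which is not among the members, was also called lower at 24 h with both siRNAs. It differed by -0.42 with CTRL siRNA (adjusted p = 0.00154) and by -0.26 with FMR4 siRNA (adjusted p = 0.0378). With FMR4 siRNA, LRP5 rose by 0.31 (0.16 to 0.45, adjusted p = 0.00533), 1 of 10 members, where 12.3% of genes were called higher, and no member was called lower, where 4.37% were. With CTRL siRNA no member was called higher, where 9.79% of genes were, and FZD7, FZD4, FZD8 and FZD5 fell, 4 of 10, where 8.75% were called lower. FZD7 fell to 8.31 ± 0.087 at 24 h, against 8.78 ± 0.14 at 6 h, a difference of -0.47 (-0.67 to -0.28, adjusted p = 0.00129). FZD4 fell to 7.42 ± 0.087, against 7.83 ± 0.083 at 6 h, a difference of -0.41 (-0.61 to -0.22, adjusted p = 0.00386). FZD5 came to -0.29 (adjusted p = 0.0261) and FZD8 to -0.24 (adjusted p = 0.0233). The FZD7 and FZD4 calls held in all 24 fits that left out 1 array, those of FZD8 in 20 and of FZD5 in 19, each lost call being without a CTRL siRNA array.

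The same 4 receptors with FMR4 siRNA gave -0.15 (FZD7), -0.22 (FZD4), -0.12 (FZD8) and 0.05 (FZD5), none of them called. The difference between these time courses is the knockdown difference at 24 h minus that at 6 h given above. Without replicate 3 of FMR4 siRNA at 6 h, FZD5 was called higher over time with FMR4 siRNA, at 0.21 (adjusted p = 0.0429), beside LRP5 at 0.28 (adjusted p = 0.0208). This made 2 of 10 members, where 10.2% of genes were called higher and 3.05% lower. Without replicate 1 of FMR4 siRNA at 6 h instead, FZD4, FZD6 and FZD7 were called lower over time (adjusted p = 0.0303, 0.0434 and 0.0447), where 6.98% of genes were called lower, and LRP5 was called higher, 1 of 10, where 17.4% were, so that the time course of these receptors with FMR4 siRNA depended on which 6 h array was used.

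With FMR4 pcDNA3.1, where 3.30% of genes were called higher and 3.03% lower, differences over time ran from -0.18 (FZD3) to 0.13 (FZD1). With CTRL pcDNA3.1, where 3.83% were called higher and 1.93% lower, they ran from -0.20 (FZD8, adjusted p = 0.118) to 0.16 (FZD2, adjusted p = 0.219). FZD3 and FZD8 had lower arrays at 24 h than at 6 h without overlap in both plasmid conditions, and 33.4% of genes with FMR4 pcDNA3.1 and 30.3% with CTRL pcDNA3.1 had arrays that did not overlap.

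**Figure D4:**
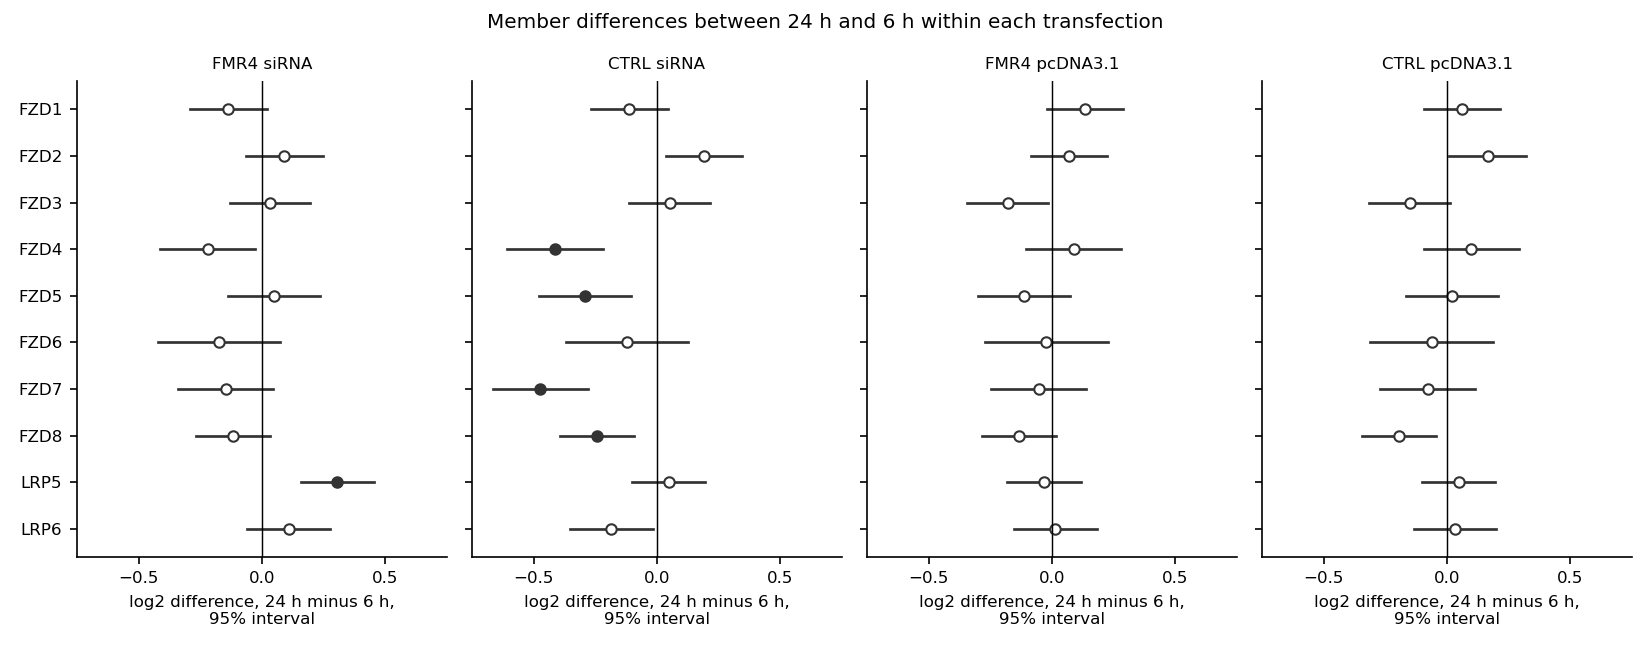
Log2 differences of the 10 members between 24 and 6 h with 95% intervals in each transfection. Filled points have an adjusted p under 0.05: LRP5 (0.31) with FMR4 siRNA, and FZD4, FZD5, FZD7 and FZD8 (-0.47 to -0.24) with CTRL siRNA.

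The start regions of 3 of the 4 members that fell with CTRL siRNA are shown, to set side by side the promoters of genes that moved together. Each runs from 250 bases before to 50 bases after the gene's start in RefSeq (GRCh38.p14), written 5′ to 3′ on the gene's own strand: FZD4 at chr11:86955346-86955645 (minus strand), FZD5 at chr2:207769857-207770156 (minus strand) and FZD8 at chr10:35642247-35642546 (minus strand). FZD7 is the other. Capitals mark GC boxes (GGGCGG or its reverse CCGCCC, the site of Sp1-like factors), CCAAT boxes (CCAAT or ATTGG, the site of NF-Y) and TATA boxes (TATAAA or TTTATA), with neighbouring GC boxes that share bases run together.
FZD4: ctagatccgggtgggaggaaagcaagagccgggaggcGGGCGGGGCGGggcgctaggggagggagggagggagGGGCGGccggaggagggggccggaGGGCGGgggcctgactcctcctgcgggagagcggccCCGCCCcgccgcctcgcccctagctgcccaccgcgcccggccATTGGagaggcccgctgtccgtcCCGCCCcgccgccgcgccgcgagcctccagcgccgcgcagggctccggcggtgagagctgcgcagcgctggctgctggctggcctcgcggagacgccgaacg
FZD5: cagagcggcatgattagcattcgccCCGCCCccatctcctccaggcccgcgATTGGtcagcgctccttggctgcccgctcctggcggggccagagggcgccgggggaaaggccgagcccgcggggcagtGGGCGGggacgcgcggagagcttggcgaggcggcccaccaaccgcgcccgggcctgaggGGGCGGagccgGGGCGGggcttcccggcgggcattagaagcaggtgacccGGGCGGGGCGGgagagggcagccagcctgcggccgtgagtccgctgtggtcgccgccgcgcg
FZD8: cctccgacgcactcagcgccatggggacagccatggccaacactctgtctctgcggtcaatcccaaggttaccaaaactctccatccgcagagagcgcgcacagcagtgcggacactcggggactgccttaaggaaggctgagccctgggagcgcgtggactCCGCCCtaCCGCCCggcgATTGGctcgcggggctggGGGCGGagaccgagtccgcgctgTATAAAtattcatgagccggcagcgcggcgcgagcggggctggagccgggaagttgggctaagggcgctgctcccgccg
FZD4 and FZD5 each held 6 GC boxes and FZD8 held 3, and 45.0% of 35116 windows of this length held at least 1. Each of the 3 held 1 CCAAT box on the reverse strand, as ATTGG, and 34.6% of windows held the motif on either strand. FZD8 alone held a TATA box, starting at position -29 from the gene's start, and 11.5% of windows held one. Their GC content was 79.7% (FZD4), 77.0% (FZD5) and 67.0% (FZD8), against a median of 58.7%. The TCF/LEF motif CTTTGAT and its reverse ATCAAAG were searched on both strands as well: 2.62% of windows held it and these 3 did not. The windows of FZD1 and LRP5, which were not called over time with CTRL siRNA, held 1 and 3 GC boxes, with a CCAAT box in FZD1 and none in LRP5. GC content was 65.7% in FZD1 and 86.7% in LRP5, and neither window held a TATA box or the TCF/LEF motif. These letters describe the windows and were not tested against expression.

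The CTRL conditions differ in nucleic acid and reagent but carry no FMR4 agent, so their comparison gives the difference between the arms. At 6 h FZD7 was lower with CTRL pcDNA3.1, at 8.44 ± 0.048, against 8.78 ± 0.14 with CTRL siRNA, a difference of -0.34 (-0.53 to -0.15, adjusted p = 0.0471). It was 1 of 10 members, where 1.70% of genes were called lower, and no member was called higher, where 1.60% were. FZD6 at -0.42 (adjusted p = 0.0550) and FZD8 at -0.23 (adjusted p = 0.0778) missed the threshold. The FZD7 call held in 5 of 24 fits that left out 1 array and was lost with only the 12 arrays of that time (adjusted p = 0.185). In 6 members, FZD3 to FZD8, the arrays of the controls at 6 h did not overlap, FZD3 being higher and the other 5 lower with CTRL pcDNA3.1, and 31.1% of genes had such arrays. Without replicate 3 of FMR4 siRNA at 6 h, which is in neither group but enters the shared spread, FZD4, FZD6, FZD7 and FZD8 were called lower (adjusted p = 0.0288, 0.00247, 0.00184 and 0.0239), 4 of 10 members, where 6.56% of genes were called lower and 6.46% higher.

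At 24 h LRP6 was higher with CTRL pcDNA3.1, at 10.14 ± 0.13, against 9.85 ± 0.094 with CTRL siRNA, a difference of 0.28 (0.11 to 0.45, adjusted p = 0.0494). It was 1 of 10 members, where 2.89% of genes were called higher, and no member was called lower, where 1.59% were. FZD4 was 0.29 (adjusted p = 0.0787) and FZD6 -0.36 (adjusted p = 0.0991), neither called. Without replicate 3 of FMR4 siRNA at 6 h, FZD4 was called higher and FZD6 lower as well (adjusted p = 0.00613 and 0.0117), which made 2 of 10 members higher and 1 lower, where 4.44% and 2.68% of genes were. The LRP6 call held in 6 of 24 fits that left out 1 array and in 5 of 9 other settings. It was lost with only the 12 arrays of 24 h (adjusted p = 0.0595) or only the groups compared (adjusted p = 0.0618), where FZD4 and FZD6 were called in its place, and with all probe sets tested (adjusted p = 0.0788) or each array centred on its median (adjusted p = 0.111).

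The knockdown and the control comparison at 24 h share the 3 CTRL siRNA arrays. Against them, LRP6 was 0.28 higher with FMR4 siRNA and 0.28 higher with CTRL pcDNA3.1, and FZD5 was 0.36 higher with FMR4 siRNA and 0.15 higher with CTRL pcDNA3.1 (adjusted p = 0.448). The CTRL siRNA arrays at 24 h gave the lowest condition mean of FZD4, FZD5, FZD7 and LRP6. The lowest LRP6 array of FMR4 siRNA at 24 h, 9.98, was below all 6 plasmid arrays of that time, whereas all 3 FZD5 arrays of FMR4 siRNA were above all 6 plasmid arrays.

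The change of the control difference over time, a comparison added after the values were seen, was largest for FZD4, at 0.51 (0.24 to 0.79, adjusted p = 0.0576), followed by FZD7 at 0.39 (adjusted p = 0.137). No member was called, where 1.12% of genes were. Without replicate 3 of FMR4 siRNA at 6 h, FZD4, FZD5 and FZD7 were called (adjusted p = 0.00168, 0.0271 and 0.0148), where 6.91% of genes were.

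**Figure D5:**
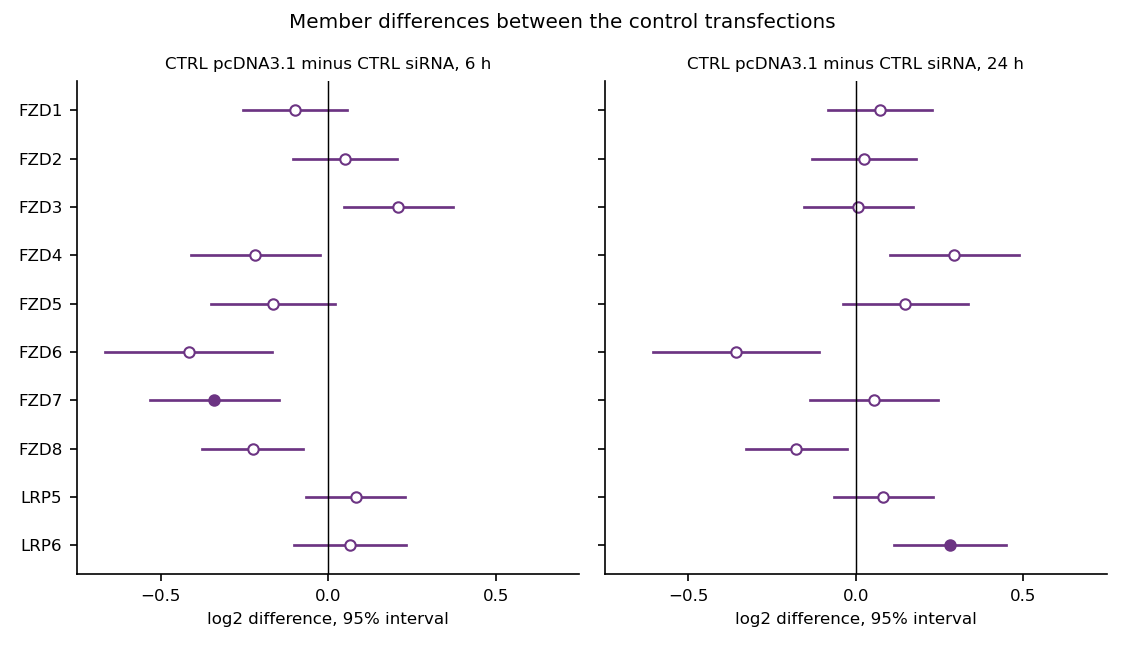
Log2 differences of the 10 members between CTRL pcDNA3.1 and CTRL siRNA with 95% intervals at 6 h (left) and 24 h (right). Filled points have an adjusted p under 0.05, FZD7 (-0.34) at 6 h and LRP6 (0.28) at 24 h, and FZD4 lies below 0 at 6 h and above 0 at 24 h.

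Around the receptors, 134 other Wnt pathway and LDL receptor family genes in 11 lists were read, of which 129 had a probe set of their own. In the knockdown at 24 h 7 of them rose and 3 fell, which is 5.43% and 2.33% of the 129, against 3.43% and 2.45% of all genes. The median difference was 0.02, against 0.004 over all genes. With replicate 3 of FMR4 siRNA at 6 h left out, 10 rose and 6 fell, which is 7.75% and 4.65%, against 4.85% and 3.36% of all genes. Among other Wnt-binding receptors, RYK, a pseudokinase receptor, rose by 0.28 (adjusted p = 0.00408) and ROR1, a receptor for WNT5A, by 0.26 (adjusted p = 0.0312), 2 of 13 measured. With CTRL siRNA both were called lower at 24 h than at 6 h, RYK at -0.19 (adjusted p = 0.0258) and ROR1 at -0.33 (adjusted p = 0.00303). With FMR4 siRNA neither was called over time. CDK14, the cyclin Y-dependent kinase that phosphorylates LRP6, had the lowest adjusted p: it averaged 9.35 with FMR4 siRNA and 8.70 with CTRL siRNA, a difference of 0.66 (adjusted p = 1.86e-05). CCDC88C, a Dishevelled-binding protein, rose by 0.68 (adjusted p = 0.00732).

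Of 10 planar polarity genes, VANGL2 rose by 0.39 (adjusted p = 0.00146) and PRICKLE1 by 0.30 (adjusted p = 0.0131), whereas VANGL1 was at -0.33 (adjusted p = 0.00298) and INVS at -0.25 (adjusted p = 0.0406), both lower. VANGL and PRICKLE proteins are core polarity components that work beside FZD3 and FZD6, and those receptors gave -0.07 and -0.19 without a call. CSNK1A1, the kinase that primes beta-catenin for degradation, was the 1 member of the destruction complex list that changed, at -0.29 (adjusted p = 0.00383). VLDLR, a lipoprotein and reelin receptor, rose by 0.37 (adjusted p = 0.0248), 1 of 10 other LDL receptor family genes. None was called among 20 Wnt ligands, 9 R-spondins, LGRs and receptor ubiquitin ligases, 18 antagonists, 13 TCF/LEF factors and partners, and 13 beta-catenin target genes. In the marker lists 1 of 7 HEK293T genes was called, NEFM, which averaged 10.14 with FMR4 siRNA and 9.38 with CTRL siRNA, and 1 of 13 genes of other cells, SYP, which averaged 7.44 with FMR4 siRNA and 7.82 with CTRL siRNA. NEFM was also called higher with CTRL pcDNA3.1 than with CTRL siRNA at 24 h, and SYP was not called there. Over time NEFM was called lower in each transfection except FMR4 siRNA. The unlogged signals of the 13 genes of other cells were summed on each array and the sum was put on the log2 scale. It ran from 10.05 to 10.22 with FMR4 siRNA and from 10.17 to 10.20 with CTRL siRNA. The part of these genes in the receptor differences was not tested.

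No gene of these 11 lists was called in the knockdown at 6 h or in either overexpression comparison. The knockdown at 6 h, once its replicate 3 of FMR4 siRNA was left out, called 0 of the 129 higher and 10 lower, which is 7.75%, against 3.95% of all genes. The knockdown difference at 24 h minus that at 6 h called 1 higher, CDK14, and 0 lower. That is 0.775% and 0%, where 1.18% of all genes were called in either direction. Without that array 18 were called higher and 1 lower, or 14.0% and 0.775%, where 8.31% of all genes were called in either direction. Between the controls at 24 h, CDK14 was 0.45 higher with CTRL pcDNA3.1 (adjusted p = 0.00231) and SFRP4, a secreted antagonist, 0.46 higher (adjusted p = 0.00255), with a mean signal of 5.34 with CTRL pcDNA3.1 and 4.88 with CTRL siRNA, near the floor median of 5.32. DVL1, a Dishevelled that binds Frizzleds inside the cell, was at -0.23 (adjusted p = 0.0428), and no other of the 129 was called, so that 1.55% were higher and 0.775% lower, against 2.89% and 1.59% of all genes. These counts were 4 higher and 3 lower without replicate 3 of FMR4 siRNA at 6 h. That is 3.10% and 2.33%, against 4.44% and 2.68% of all genes. Between the controls at 6 h 1 of the 129 was called higher and 4 lower, or 0.775% and 3.10%, against 1.60% and 1.70% of all genes. Without that array 4 were higher and 13 lower, or 3.10% and 10.1%, against 6.46% and 6.56% of all genes. Over time with FMR4 siRNA, 21 were called higher and 5 lower, or 16.3% and 3.88%, against 12.3% and 4.37% of all genes. Without that array they were 24 and 2, or 18.6% and 1.55%, against 10.2% and 3.05%. With CTRL siRNA 9 were higher and 22 lower, or 6.98% and 17.1%, against 9.79% and 8.75% of all genes. With FMR4 pcDNA3.1 7 were higher and 4 lower, or 5.43% and 3.10%, against 3.30% and 3.03% of all genes. With CTRL pcDNA3.1 9 were higher and 4 lower, or 6.98% and 3.10%, against 3.83% and 1.93%.

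Across the 24 arrays, which share conditions and normalization, the genes whose signal ran most like FZD5 were STK35 (Pearson r = 0.93), ANKH (0.92) and SPSB1 (0.91), and the least like it was PIGS (-0.87). For LRP6 they were ANKRD50 (0.91), PBRM1 (0.88) and LINC02210 (0.86), with VAX2 (-0.80) at the other end. Among the members, FZD5 ran most like FZD7 (0.69) and LRP6 (0.58), and against FZD2 (-0.59). These correlations describe the arrays and carry no test.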

How the data were processed

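RNA from 24 HEK293T samples, 3 for each of 8 conditions, was hybridised to Affymetrix Human Gene ST arrays, named as version 1.0 in the labels and the platform annotation and as 2.0 in the study's methods. The deposited values are log2 signals that the authors background-corrected, normalized and summarised per probe set with GC-RMA, per the submitters' processing notes. Of 33297 probe sets, 21214 had a gene in the platform annotation, 19460 of them a single symbol, and these gave 18414 genes after 7 symbols were updated through RefSeq. A gene with several probe sets is given by the one of highest mean.

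Condition means were fitted on all 24 arrays with limma 3.58.1 in R 4.3.3, with 16 residual degrees of freedom, moderated variances and Benjamini-Hochberg adjustment over 21214 probe sets within each of 13 comparisons and the F test. Called means an adjusted p under 0.05. Intervals are 95%. Each sample pooled technical replicates, and p-values measure the spread between these samples. Members and lists were chosen with earlier results of these data known. All 10 members are named, with per-array values for those called in an FMR4 comparison or the F test. From the lists, called genes of lowest p in the knockdown and control comparisons at 24 h are named. Promoter windows are RefSeq's (GRCh38.p14), used for 5 members, and were searched with Python 3.11.15. Figures were drawn with matplotlib 3.10.9. The fit was tested on simulated data. Alternatives were the arrays fitted, variance moderation, array weights, normalization, probe sets tested, a filter on dim probe sets, the threshold, a replicate block and leaving out each array. The number of arrays limits the precision.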

Additional observations from a re-analysis of the deposited data

How the results depend on the processing

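No called difference of a member turned its sign under any setting tried. Counts of members called follow, each against the count given above. Shares of all genes called are given above for some fits that left out 1 array, and not for the other settings. The counts therefore show how calls move and are no result about the members against other genes. In the knockdown at 24 h (2 called), fitting only the arrays of the groups compared, testing all probe sets, or adding a replicate block gave 1, a threshold of 0.01 gave 0 and of 0.1 gave 3, with LRP5 added, and leaving out 1 array gave 0 to 2. With only the 12 arrays of that time the count stayed at 2, but LRP5 took the place of LRP6. The knockdown at 6 h (0 called) gave 0 to 3 with 1 array left out. The knockdown difference at 24 h minus that at 6 h (0 called) gave 3 with array weights and 0 to 4 with 1 array left out. The controls at 24 h (1 called) gave 2 with only the 12 arrays of that time or only the groups compared, these being FZD4 and FZD6 without LRP6, 3 with array weights or a threshold of 0.1, 0 with median centring, all probe sets or a threshold of 0.01, and 0 to 3 with 1 array left out. The controls at 6 h (1 called) gave 0 with the 12 arrays of that time, all probe sets or a threshold of 0.01, 2 with trend and robust moderation, quantile normalization or dim probe sets removed, 3 with only the groups compared or a threshold of 0.1, 5 with array weights, and 0 to 4 with 1 array left out. Over time, CTRL siRNA (4 called) gave 2 at a threshold of 0.01, 5 at 0.1 or with array weights (FZD2 added) or quantile normalization (LRP6 added) and 2 to 5 with 1 array left out, and FMR4 siRNA (1 called) gave 0 with only the groups compared, 2 with array weights and 1 to 4 with 1 array left out. Over time with plasmid, where 0 were called, array weights gave 1 with FMR4 pcDNA3.1 and 2 with CTRL pcDNA3.1, and leaving out 1 array gave 0 to 0 with FMR4 pcDNA3.1 and 0 to 1 with CTRL pcDNA3.1. The change of the control difference (0 called) gave 2 with only the groups compared, 3 with array weights, 1 at a threshold of 0.1 and 0 to 3 with 1 array left out. The F test (8 called) gave 3 at a threshold of 0.01, 9 with array weights (LRP6 added), 6 with all probe sets (FZD3 and LRP5 lost) and 5 to 8 with 1 array left out, and after quantile normalization LRP6 took the place of LRP5 (adjusted p = 0.103). Overexpression gave 0 under each of them.

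The replicate block ended the LRP6 call in the knockdown at 24 h (adjusted p = 0.0556) and changed no other member's call in the comparisons of FMR4 with its control. Equal replicate numbers were not shown to mark pairs: deviations of same-numbered arrays correlated at -0.38 to 0.47, and in 0 of 6 pairs of groups were all 3 over 0.1. Arrays of unequal number were not compared, so this does not exclude pairing. The block could not be fitted for the control and time comparisons or the F test. Causes of these changes were not tested. With 3 arrays per condition and standard errors of 0.0716 (LRP5) to 0.120 (FZD6), small changes could be missed, and the signal of FZD4 lay nearest to the floor.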
